A study of Lemna gibba with 6 samples.

Results

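The genes described here are the 49 genes of *L. gibba* fronds with at least a 3-fold higher mean normalized count when the fronds grew on glutamine (ONS) than on nitrate (INS). They were chosen by the measured ratio of the ONS mean to the INS mean among the 16340 genes of the authors' deposited table, and a mean over all libraries of 50 was the minimum. Genes that the study assigns to reactions of its metabolic network were left out. The table pairs gene IDs with no names, and an annotation of the 49 genes was not used here. They are therefore called by their IDs with no function, and the labelled tissue was not compared with marker genes.

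The data are from fronds of *Lemna gibba* G3 7742a, an axenic duckweed clone, kept in continuous light at 24°C with 5 g/L glucose in both conditions. Under INS, nitrogen came from 12.4 mM potassium nitrate and 1.3 mM ammonium phosphate. Under ONS, potassium chloride and potassium phosphate took the place of these salts, and 6.85 mM glutamine was added. Polyadenylated RNA of 3 biological replicates was sequenced for each condition, and all fronds come from 1 clone.

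Plants that grow on nitrate reduce it to nitrite and ammonium before glutamine synthetase binds the ammonium in glutamine. Glutamine in the medium enters behind these steps, and it brings carbon as well as nitrogen. Both nitrate and glutamine are known to act as signals that alter transcription in plants. Genes that are higher on glutamine can be read from bulk tissue only as a sum, in which more cells of a type and more RNA per cell cannot be told apart. The study reports a larger share of roots in the dry weight under ONS. Its part in the ratios of these genes was not tested.

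Mean normalized counts are read counts divided by the authors' size factors and averaged over 3 libraries, not divided by transcript length. Reads per library were recovered from these means, as each mean is a sum of whole reads weighted by the size factors. A single solution was found for 39 of the 49 genes in both conditions and for 8 more under INS alone. Libraries are named here by depth (deepest, middle and shallowest of each condition), since their replicate numbers could not be matched, and values are given in this order. Estimated depths ran from 8324792 to 35807286 reads. As a check of the condition labels, nitrite reductase (LEMGIv51_A5_006998_1) was at 23539.7 under INS and 948 under ONS, and nitrate reductase (LEMGIv51_A5_009812_1) at 18879 and 609.8.

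The set is small beside the genes that changed in the other direction. Among the 12884 genes that reach the minimum mean, the ratio of ONS to INS was 3 or more for 51 genes (0.396%), and 2 of these belong to the network. At the same minimum mean, 375 genes outside the network were at least 3-fold lower under ONS. The median ratio of all 12884 genes was 1.02. Between 2-fold and 3-fold higher were another 207 genes, network genes included.

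**Figure D1:**
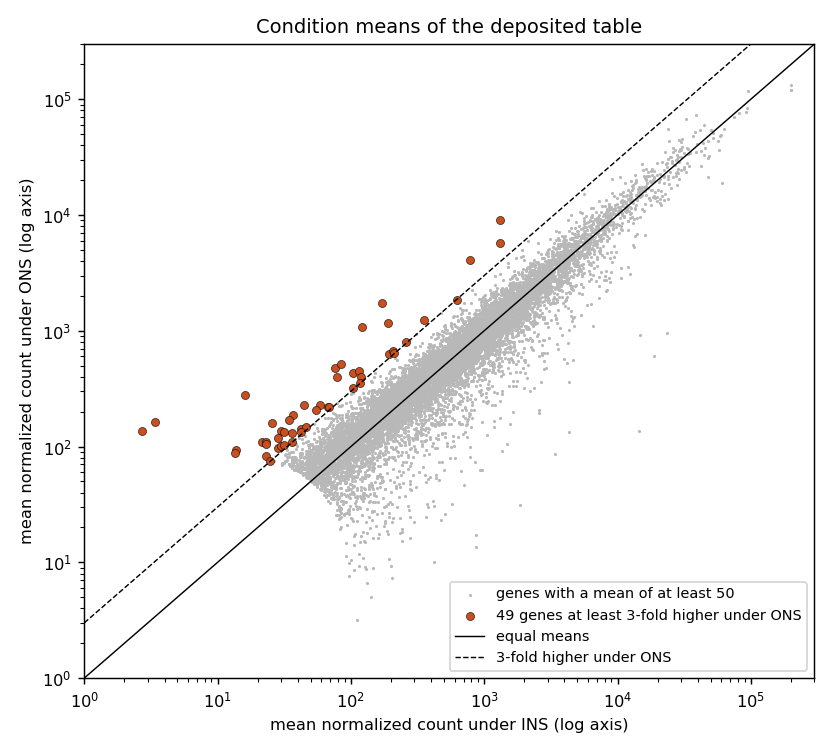
Mean normalized count of each gene under INS (horizontal, log axis) and under ONS (vertical, log axis), from the authors' deposited table. Gray points are all genes that reach the minimum mean of 50 and are above 0 in both conditions, orange points are the 49 genes at least 3-fold higher under ONS, and the lines mark equal means and the 3-fold threshold. The 49 genes lie between 2.70 and 1309 under INS and between 75.8 and 9081 under ONS.

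The ratio of the 49 genes ran from 3.00 to 50.1, with a median of 4.14. It was 10 or more for 4 genes, 5 to 10 for 13, 4 to 5 for 8 and 3 to 4 for 24. None of the genes had a mean of 0 under INS. Since the ratio chose the genes, it is a description, and no test of ONS against INS is given for them. Their means over all libraries were under 100 for 21 genes, from 100 to 1000 for 24 and above that for 4. Summed over all 49 genes, the mean normalized counts were 7454 under INS and 36260 under ONS, or 0.0400% and 0.199% of the table. The 3 genes with the highest ONS mean held 52.1% of the ONS sum, and the other 46 genes added up to 4062 under INS and 17385 under ONS.

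Transcripts of LEMGIv51_A5_014725_1 and LEMGIv51_A5_009683_1 were close to the limit of detection on nitrate and plainly present on glutamine. LEMGIv51_A5_014725_1 was covered by 5, 0 and 2 reads on nitrate and by 231, 177 and 67 on glutamine. Divided by the size factors, these reads are 3.61, 0 and 4.48 under INS and 118, 203 and 84.6 under ONS. The lowest ONS library was 18.9 times as high as the highest INS library. LEMGIv51_A5_009683_1 was covered by 8, 0 and 2 reads on nitrate and by 498, 117 and 78 on glutamine. Normalized, this gene was at 5.77, 0 and 4.48 under INS and at 254, 134 and 98.5 under ONS, with a gap of 17.1 times between the groups.

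The ratios of these genes, 50.1 and 47.4, rest on very few INS reads. Over the INS libraries, LEMGIv51_A5_014725_1 had 7 reads in all (95% exact Poisson interval 2.81 to 14.4, for counting error only) and LEMGIv51_A5_009683_1 had 10 reads (4.80 to 18.4). In the middle INS library both genes were at 0 reads, which allows up to 3 reads or 2.44 normalized reads per library. Without each library in turn, the ratio lay between 33.4 and 74.8 for LEMGIv51_A5_014725_1 and between 31.6 and 72.3 for LEMGIv51_A5_009683_1.

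LEMGIv51_A5_000041_1 was low but measurable on nitrate, and every ONS library lay far above it. It had 27, 11 and 9 reads under INS (19.5, 8.93 and 20.2 normalized) and 713, 231 and 166 under ONS (363, 264 and 209.6 normalized). The mean was 16.2 ± 6.29 under INS and 279 ± 77.8 under ONS (SD, n = 3), a ratio of 17.2, and the groups were 10.4 times apart at their nearest libraries. Leaving out any library kept the ratio between 14.1 and 19.6.

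Of the genes with a ratio of 5 to 10, LEMGIv51_A5_012835_1 and LEMGIv51_A5_015787_1 had the lowest counts. LEMGIv51_A5_012835_1 was at 15.9, 12.2 and 13.4 normalized reads under INS and at 82.0, 116 and 83.3 under ONS. LEMGIv51_A5_015787_1 was at 15.1, 7.31 and 17.9 under INS and at 98.3, 75.5 and 90.9 under ONS. The groups did not overlap for either gene. LEMGIv51_A5_000087_1 reached 243, 106 and 134 normalized reads under ONS from 23.8, 13.0 and 40.3 under INS, and its ratio of 6.27 was 4.67 without the deepest ONS library.

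The genes with the most reads on glutamine had means above the range in which reads per library could be recovered. In the authors' deposited table, the INS mean of LEMGIv51_A5_010180_1 was 1309 and its ONS mean 9081, a ratio of 6.94, and LEMGIv51_A5_020609_1 had means of 1306 and 5745, a ratio of 4.40. No error could be estimated for these means. For LEMGIv51_A5_009926_1, with an ONS mean of 4049, the INS libraries gave 1257, 727 and 347 normalized reads. Its INS libraries thus differed by 3.62-fold, beside a ratio of 5.21 between the conditions.

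For other genes of this kind the INS libraries were closer together. LEMGIv51_A5_007152_1 had 170.2, 144 and 204 normalized reads under INS and a mean of 1734 under ONS (ratio 10.05). LEMGIv51_A5_011588_1 had 110.3, 69.8 and 181 under INS and a mean of 1085 under ONS (ratio 9.0). LEMGIv51_A5_003698_1 was less even, with 177, 274 and 609 under INS and an ONS mean of 1233. No ONS library of these genes could be separated, so the spread under ONS is unknown. For LEMGIv51_A5_019562_1, 2 solutions fit the ONS mean of 804, one with 796, 786 and 830 and one with 1600, 565 and 246 normalized reads. The INS libraries were at 182, 291 and 305, so that the groups overlap in one solution and not in the other. LEMGIv51_A5_018706_1 (ratio 3.08) likewise had 2 ONS solutions.

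**Figure D2:**
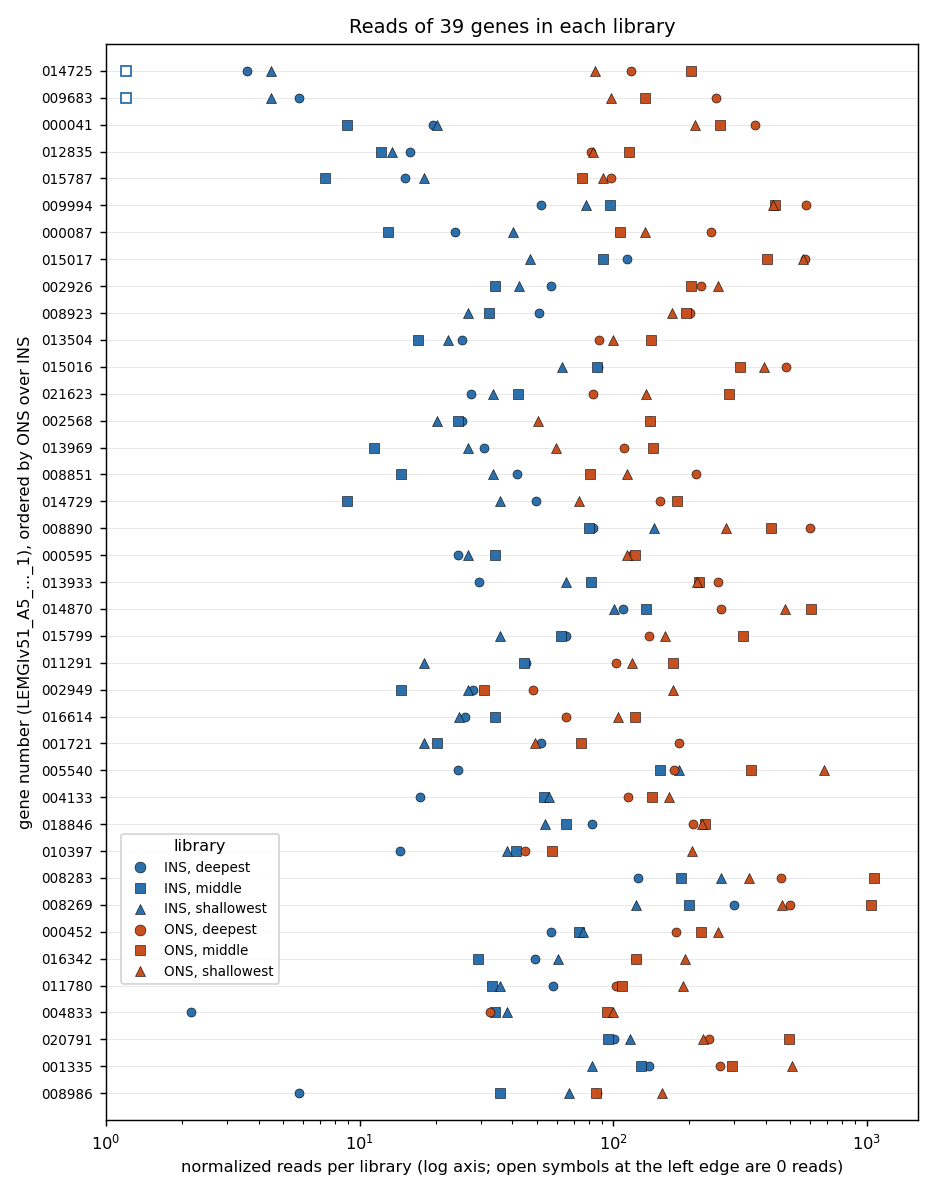
Normalized reads (horizontal, log axis) of the 39 genes with recovered reads, 1 row per gene, ordered by the ratio of ONS to INS. Blue symbols are INS libraries and orange symbols ONS libraries, with the shape giving the depth and open symbols standing for 0 reads. The ONS symbols lie to the right of all INS symbols in 36 rows, and LEMGIv51_A5_001721_1, LEMGIv51_A5_005540_1 and LEMGIv51_A5_004833_1 are the exceptions.

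All ONS libraries lay above all INS libraries for 36 of the 39 genes. The same was seen for 11.4% of the 8008 genes with recovered reads and a mean of at least 50, but the choice by ratio nearly fixes this count for the 39. The lowest ONS library was at least 2 times the highest INS library for 21 genes and at least 3 times for 12, with a median of 2.03. The shares of all genes at these gaps were not computed, and the choice by ratio raises these counts too. Across 10373 genes, limma called 0.299% more than 4-fold higher under ONS at an adjusted p of at most 0.05, and 0.916% higher at any fold. These shares describe the genes with recovered reads and a mean of at least 10, not the whole table.

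The 3 genes whose groups overlapped had a wide spread within a condition. LEMGIv51_A5_005540_1 was at 24.5, 153 and 181 normalized reads under INS and at 174, 349 and 679 under ONS. Its deepest ONS library was therefore below its shallowest INS library, and the 3 INS libraries spanned 7.40-fold. LEMGIv51_A5_004833_1 was at 2.16, 34.1 and 38.1 under INS and at 32.6, 94.99 and 99.8 under ONS. LEMGIv51_A5_001721_1 was at 51.9, 20.3 and 17.9 under INS and at 182, 74.4 and 49.2 under ONS, and the deepest library was the highest in either condition.

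A single ONS library gave more than 50% of the normalized ONS reads for 13 of the 39 genes (33.3%). The same held for 7.43% of the 8008 genes and 16.4% of the 269 genes with recovered reads that were at least 3-fold lower under ONS. Within INS, the higher condition of those 269 genes, the share was 20.8% for them, 20.5% for the 39 and 7.08% for the 8008. A high value in 1 ONS library also raises the ratio that chose the 39 genes. The largest share of 1 ONS library was that of LEMGIv51_A5_002949_1, with 48.4, 30.9 and 172 normalized reads under ONS and 28.1, 14.6 and 26.9 under INS. LEMGIv51_A5_010397_1 had 44.8, 57.2 and 205 under ONS and 14.4, 41.4 and 38.1 under INS. In both genes the shallowest ONS library stood apart and the other ONS libraries were nearer to the INS libraries than to it. Without it the ratio was 1.71 for LEMGIv51_A5_002949_1 and 1.63 for LEMGIv51_A5_010397_1, in place of 3.61 and 3.26.

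In LEMGIv51_A5_021623_1 the high library was the middle ONS library. This gene was at 27.4, 42.2 and 33.6 normalized reads under INS and at 83.5, 286 and 135 under ONS, so every ONS library was still above every INS library. Its ratio was 4.89 and fell to 3.18 without the middle ONS library. The deepest ONS library was the high one in LEMGIv51_A5_008851_1, with 211, 81.3 and 114 under ONS and 41.8, 14.6 and 33.6 under INS, and the ratio of 4.51 was 3.25 without that library. LEMGIv51_A5_002568_1 had instead a low one, with 139.6, 139.6 and 50.5 under ONS and 25.2, 24.4 and 20.2 under INS.

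In other genes the ONS libraries were close together and well above the INS libraries. LEMGIv51_A5_000595_1 was at 118, 122 and 114 normalized reads under ONS and at 24.5, 34.1 and 26.9 under INS. LEMGIv51_A5_018846_1 was at 206, 231 and 223 under ONS and at 82.2, 64.9 and 53.8 under INS. LEMGIv51_A5_008923_1 was at 201, 195 and 170.5 under ONS and at 51.2, 32.5 and 26.9 under INS. Their ONS libraries differed by 1.08-fold to 1.18-fold. These 3 genes are named for their small spread, after their values were seen.

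Within a condition, the libraries of the 39 genes differed more than those of most genes. The highest ONS library was a median of 1.93 times the lowest for the 39 genes, against 1.48 times for all 8008 genes and 1.82 times for the 269 lower genes. Under INS the medians were 1.92, 1.53 and 1.84, over genes without a library at 0. A difference of 3-fold or more within ONS was found for 7 of the 39 genes (17.9%, against 3.95% of all genes and 15.6% of the lower genes). Within INS it was found for 8 (20.5%, against 5.43% and 10.4%). The standard error of the log2 fold change from limma had a median of 0.38 for the 39 genes and 0.28 for the 8008 genes. Counts under INS are low in many of the 39 genes, with fewer than 100 reads over the INS libraries in 17, and a high value in 1 ONS library raises the ratio used for the choice. The part of both in the wider spread was not tested.

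No single library was the highest for most genes. The highest ONS value was in the deepest library for 12 genes, in the middle one for 16 and in the shallowest for 11, against shares over all 8008 genes of 27.6%, 36.0% and 36.4%. Under INS the deepest library was highest for 19 genes (48.7%, against 39.5% of all genes) and the middle one lowest for 16 (41.0%, against 22.8%). For 11 genes (28.2%, against 43.2%) the deepest INS library was the lowest. Among these were LEMGIv51_A5_004833_1 and LEMGIv51_A5_008986_1, the latter with 5.77, 35.7 and 67.2 normalized reads under INS and 86.1, 85.8 and 155 under ONS. Without the deepest INS library their ratios were 2.10 and 2.12.

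**Figure D3:**
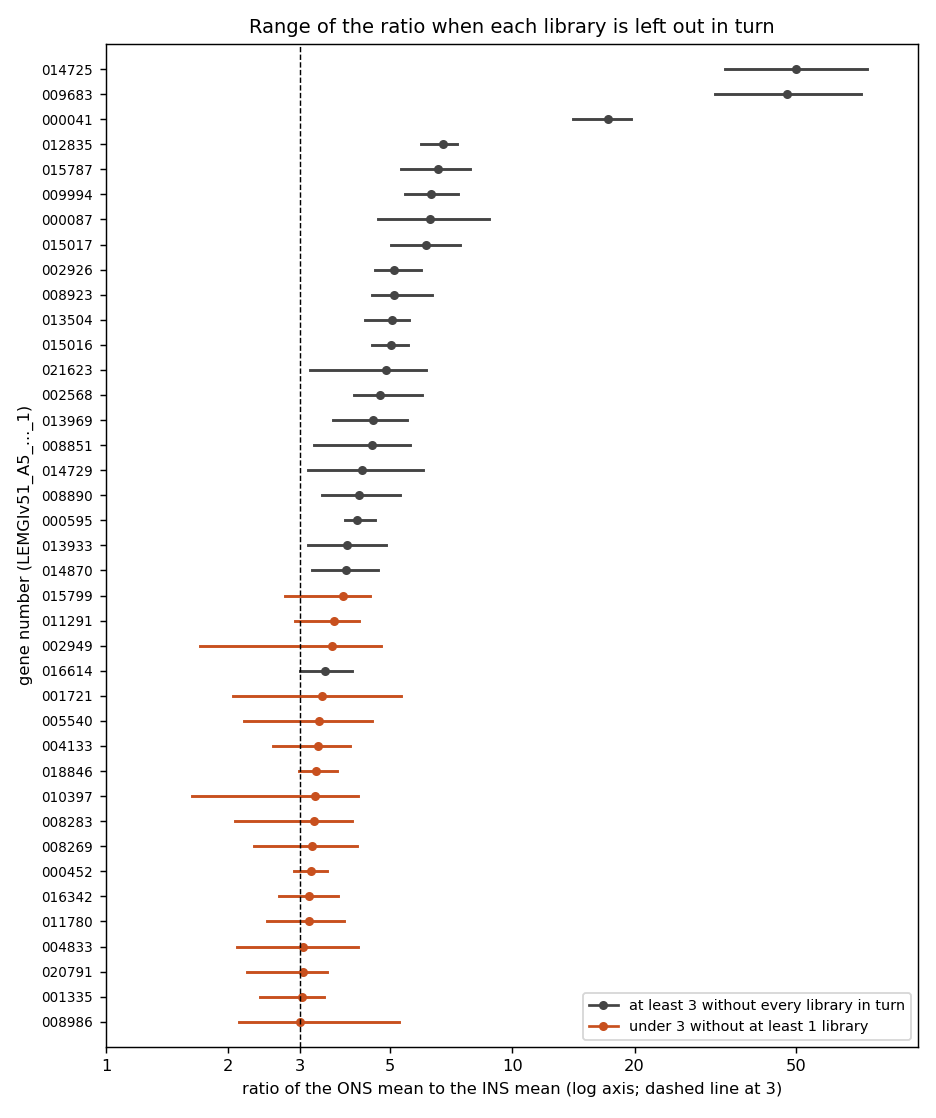
Ratio of the ONS mean to the INS mean (horizontal, log axis) for the 39 genes with recovered reads, 1 row per gene. Points give the ratio over all libraries and bars its range when each library is left out in turn. Gray bars, 22 genes, stay at 3 or above and orange bars, 17 genes, reach below the dashed line at 3.

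The ratio was also computed without each library in turn. Since the same ratio chose the genes, those near 3 can easily fall below it without an ONS or an INS library, and the counts are a description. All 19 genes with recovered reads and a ratio of 4 or more stayed at 3-fold or more without any single library. Of the 20 genes with a ratio between 3 and 4, this held for 3. For 37 of the 39 genes the ratio stayed at 2 or more, and the exceptions are LEMGIv51_A5_002949_1 and LEMGIv51_A5_010397_1. The number of genes at 3-fold or more was lowest, 30, without the shallowest ONS library and highest, 38, without the deepest ONS library.

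The ratios on both sides of the threshold were close to each other. Just inside it were LEMGIv51_A5_009163_1 (INS mean 620, ONS mean 1860, ratio 3.00), LEMGIv51_A5_008986_1 (36.2 and 109, ratio 3.01) and LEMGIv51_A5_001335_1 (117 and 355, ratio 3.04). Just outside were LEMGIv51_A5_020790_1 (478 and 1427, ratio 2.98), LEMGIv51_A5_004776_1 (79.3 and 236, ratio 2.97) and LEMGIv51_A5_012822_1 (263 and 781, ratio 2.97). LEMGIv51_A5_020790_1 carries the number before that of LEMGIv51_A5_020791_1, which is among the 49 genes with a ratio of 3.05, so that the threshold splits these neighbours.

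The numbers in the gene IDs are the only hint of position in the table. Among the 49 genes, 2 pairs have consecutive numbers, beside 37 such pairs among the 375 genes at least 3-fold lower under ONS. The share over all genes was not computed. Reads were mapped to predicted transcripts, so that neighbouring or similar genes may share reads, and the pairs are uncertain as separate measurements. LEMGIv51_A5_015016_1 was at 87.3, 86.0 and 62.7 normalized reads under INS and at 479, 317 and 394 under ONS. LEMGIv51_A5_015017_1 was at 113, 90.9 and 47.0 under INS and at 572, 406 and 561 under ONS. In both genes the shallowest library was lowest under INS, and the middle library was lowest under ONS.

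LEMGIv51_A5_009993_1 and LEMGIv51_A5_009994_1 form the other pair, with ratios of 6.15 and 6.32. LEMGIv51_A5_009994_1 was at 51.9, 97.4 and 78.4 normalized reads under INS and at 576, 435 and 428 under ONS. LEMGIv51_A5_009993_1 was at 178, 186 and 206 under INS, with an ONS mean of 1168. The INS order of the libraries differs between them. On either side in the table, LEMGIv51_A5_009990_1 had a ratio of 2.37 and LEMGIv51_A5_009995_1 a ratio of 0.788.

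**Figure D4:**
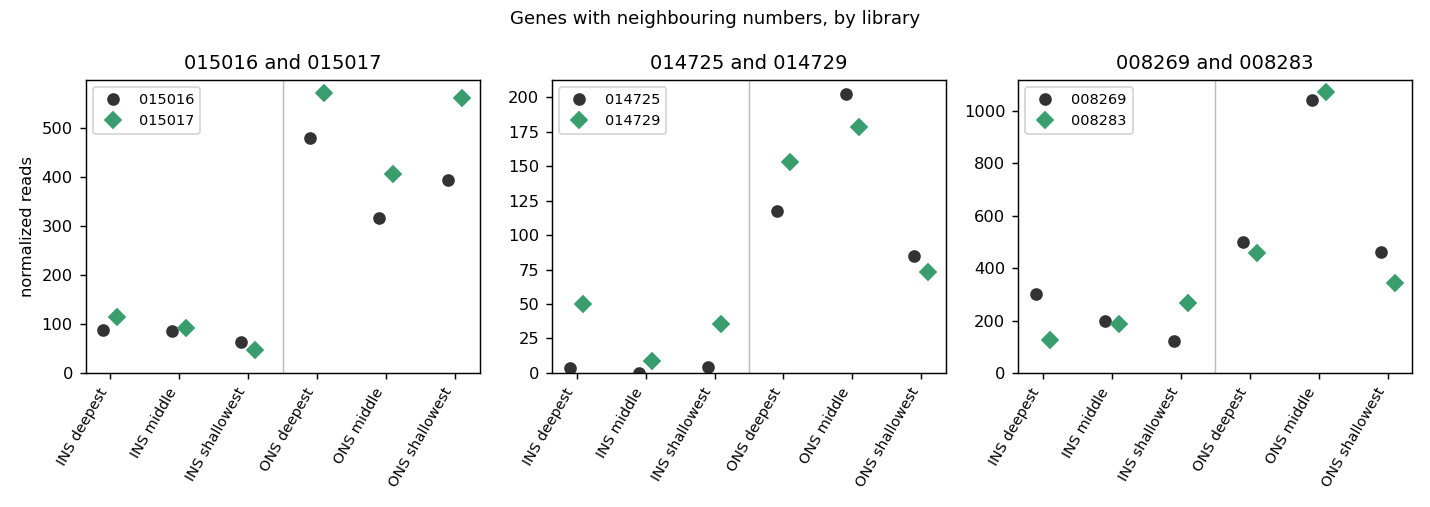
Normalized reads (vertical) in each library for 3 pairs of genes with neighbouring numbers, 1 panel per pair, with INS libraries to the left of the gray line and ONS libraries to the right. Both genes of a pair are highest in the same ONS library in each panel, whereas LEMGIv51_A5_008269_1 and LEMGIv51_A5_008283_1 are in opposite order under INS.

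LEMGIv51_A5_014725_1 has LEMGIv51_A5_014729_1 as its next row in the table, which is also among the 49 genes. LEMGIv51_A5_014729_1 was at 49.8, 8.93 and 35.8 normalized reads under INS and at 153, 179 and 73.2 under ONS, a ratio of 4.28. Their ONS means were both 134.9, but the INS means were 2.70 and 31.5. Both genes were highest in the middle and lowest in the shallowest ONS library, and lowest in the middle INS library. The next rows moved the other way, with LEMGIv51_A5_014730_1 at 23.6 under INS and 2.46 under ONS and LEMGIv51_A5_014731_1 at 123 and 39.1.

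LEMGIv51_A5_008269_1 and LEMGIv51_A5_008283_1 lie 14 numbers apart and shared a peak in the middle ONS library. LEMGIv51_A5_008269_1 was at 301, 199.7 and 123 normalized reads under INS and at 499, 1043 and 463 under ONS. LEMGIv51_A5_008283_1 was at 125, 185 and 267 under INS and at 458, 1072 and 343 under ONS. Without the middle ONS library their ratios were 2.31 and 2.08. LEMGIv51_A5_014729_1 and this pair were chosen for description after their values were seen.

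The network genes that met the same thresholds encode enzymes of known function. LEMGIv51_A5_021609_1, a phosphoenolpyruvate carboxykinase gene for the enzyme that forms PEP from oxaloacetate, had 151, 438 and 470.4 normalized reads under INS and an ONS mean of 1297 (ratio 3.67). Its neighbour LEMGIv51_A5_021610_1 for the same enzyme had a ratio of 2.44. The study calls only changes of more than 4-fold, and it reports no significant change for any gene of this enzyme. LEMGIv51_A5_017841_1, a glucose-1-phosphate adenylyltransferase gene for the enzyme that makes ADP-glucose for starch, had 236, 363 and 320.3 under INS and an ONS mean of 933 (ratio 3.05). Both had their lowest INS value in the deepest library.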

How the data were processed

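Conditions were taken from the sample titles. According to the methods of the study, Bowtie was used to align read pairs of 101 bp to 21830 transcript models of the v0.5.1 draft assembly, and DESeq scaled the counts (versions not given in the sources used here). The signal values in the authors' deposited table are condition means of read counts divided by size factors. The table also holds the authors' fold changes, p-values and calls, which were not used.

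Library weights were found from the lowest means and refined by least squares. Whole reads that give both condition means and the overall mean within the rounding of 10 digits were then searched for means under 1000. A single solution was found for 11464 genes (70.2%), and the search was tested on simulated data. The reads of other genes are unknown. Because the deposited values are normalized means, a count model was not used. limma 3.58.1 (R 4.3.3, trend option) was fitted to log2(normalized reads + 1), with Benjamini-Hochberg adjustment, for the 10373 genes with recovered reads and a mean of at least 10. The fit serves as the background over these genes, and genes with a condition mean of 1000 or more are not in it. It was also tested on simulated data. Other steps used Python 3.11.15, numpy 2.4.6, pandas 2.3.3, scipy 1.17.1 and numba 0.67.0. Depth was estimated for each library as its size factor times the summed mean counts of its condition, and intervals cover counting error only.

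The 49 genes and the tests were chosen with earlier results of these data known. Genes were named as those with the 10 largest ratios, the 10 highest ONS means, the 10 widest ONS spreads, consecutive numbers, or ratios next to the threshold (3 on each side). Network genes that met the thresholds were named too, and nitrate and nitrite reductase served as the check of conditions. Alternatives changed thresholds, pseudocounts, scaling and libraries.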

Additional observations from a re-analysis of the deposited data

How the results depend on the processing

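The number of genes that meet the rule depends on its thresholds: 246 genes were at least 2-fold higher, 25 at least 4-fold, 102 met a minimum mean of 10 and 28 one of 100, against 49. It was 34 with 10 counts added to both means, 44 with ratios divided by the median ratio and 51 with network genes kept. Of the 39 genes with recovered reads, 30 to 38 met the 3-fold threshold without each library in turn. With the median of the libraries in place of the mean, 26 met it. All ONS libraries lay above all INS libraries for 36 to 38 of them. The limma fit, which covers only genes with recovered reads, called 31 genes more than 4-fold higher under ONS. This count became 13 with 10 reads added on the log scale and 19 with a minimum mean of 50. At 2-fold it was 90, and without a fold threshold 95. The 4-fold count was 19 to 40 without each library, with the lowest count without the middle ONS library. Of 390 ratios of single genes under other settings, 12 moved by more than the spread between replicates. A wide spread hides larger moves. For LEMGIv51_A5_010397_1, the ratio of 1.63 without the shallowest ONS library, in place of 3.26, is not among the 12. The ratio of this gene from the medians of the libraries is among them. No paired analysis was possible because the columns carry no replicate numbers and the libraries could not be matched to them. The low INS counts limit the ratios of the lowest genes.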

Other observations

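A minimum mean of 50 leaves out many genes with the same ratio. Outside the network, 53 genes with a mean from 10 to 50 and 84 genes with a mean under 10 were at least 3-fold higher under ONS. They are given as counts only, since few reads stand behind their ratios.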
